A study of Homo sapiens with 12 samples.

Results

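The genes described here are the WNT ligands, their Frizzled and LRP receptors, the secreted antagonists of the SFRP and DKK families, and the cytoplasmic signal carriers AXIN1, AXIN2, APC, CTNNB1 and the Dishevelled genes DVL2 and DVL3. The rule that picks them goes by gene symbol and sets no condition on the values. Of the 25146 genes in the deposited table, 43 matched: 18 ligands, 9 Frizzled receptors, 2 co-receptors, 8 secreted antagonists and 6 cytoplasmic genes. WNT3, FZD8 and DVL1 belong to the same families and were not analysed here.

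The RNA came from Jurkat and Molt-4, established lines of T-cell acute lymphoblastic leukaemia, in 4 groups of 3 libraries: untreated Jurkat, treated Jurkat, untreated Molt-4 and treated Molt-4. Treated cells received chidamide at 2 µM, a benzamide inhibitor of histone deacetylases that is also known as tucidinostat. The treatment protocol gives 48 h, while the treated libraries are labelled 48, 49 and 50 h for replicates 1, 2 and 3. Whether these labels are true times is not given in the sources used here, and time and replicate number cannot be told apart. All groups grew in the same serum-containing medium, and no vehicle for the untreated cells is named in the labels. Each line stands for 1 leukaemia, and nothing in the labels ties the replicates to cultures grown apart, so the p-values below cover the spread among these samples only, which may be technical.

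WNT proteins are secreted lipid-modified ligands that bind a Frizzled receptor together with the co-receptor LRP5 or LRP6. Without a ligand, a destruction complex built on AXIN and APC marks beta-catenin, the product of CTNNB1, for degradation; with one, Dishevelled proteins recruit AXIN to the receptor, and beta-catenin enters the nucleus and works with TCF and LEF factors. In the thymus this pathway is known for its part in early T-cell development, in which TCF7 and LEF1 take part.

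Levels are given in FPKM, fragment counts scaled to transcript length and library size, as the authors deposited them. A gene was tested where it reached an FPKM of 1 in at least 3 of the 12 libraries, which held for 13840 genes and for 20 of the 43 members. Changes are differences of log2(FPKM + 1) ± SE from a limma fit to all 12 libraries, on which the change of a low gene comes out too small. A gene is called higher or lower where its Benjamini-Hochberg adjusted p from limma was under 0.05. DKK3, WNT11 and FZD7 reached an FPKM of 1 in treated libraries alone, so they passed the filter through the group in which they were high, and their calls add nothing to a count. WNT8B reached an FPKM of 1 in 1 untreated and 3 treated libraries, so it too needed treated libraries to pass. It stays in the counts below unless stated. In bulk RNA, fewer cells of a type and less RNA per cell cannot be told apart.

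With chidamide, most of the tested ligand and receptor genes were higher, while the cytoplasmic genes went in both directions. Of the 20 tested members, 14 were called higher and 4 lower in treated Jurkat, where 30.9% of all genes tested were called higher and 25.4% lower. In treated Molt-4, 13 were called higher and 3 lower, against 35.4% and 24.6% of all genes tested. Under quantile normalization this split was 11 and 5, with no share of all genes given for that setting. Without DKK3, WNT11 and FZD7, the counts of 17 members were 11 higher and 4 lower in Jurkat and 10 and 3 in Molt-4. The 17 still hold WNT8B, which also needed treated libraries to pass and was called higher in Jurkat. The median log2 change of these 17 was 0.38 in Jurkat and 0.49 in Molt-4, and that of all genes tested, which also hold genes that passed through treated libraries alone, was 0.04 and 0.08. Called higher in both lines were AXIN2, CTNNB1, FZD1, FZD2, FZD4, FZD6, LRP6, WNT10B and WNT2B. So were DKK3, FZD7 and WNT11, which passed the filter through treated libraries alone. AXIN1, DVL2 and DVL3 were called lower in both. The share of all genes called the same way in both lines was not computed.

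**Figure D1:**
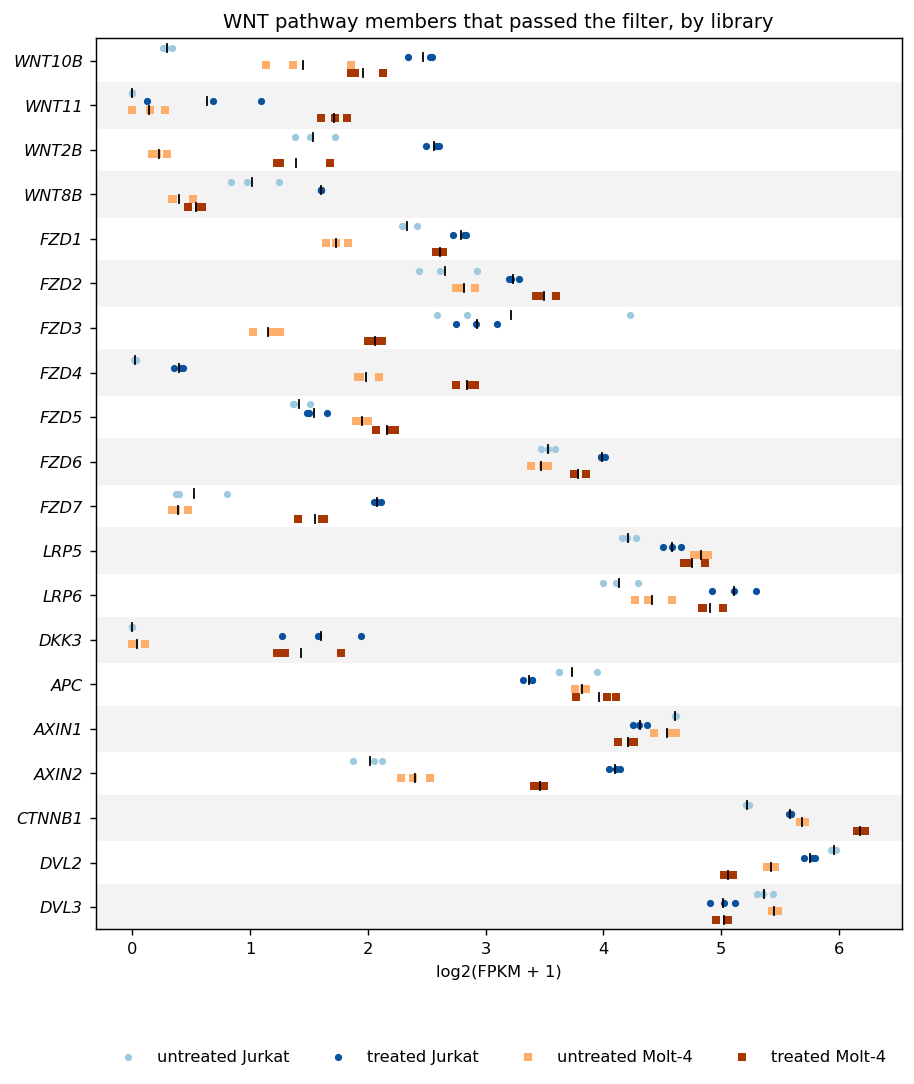
The 20 members that passed the filter, ordered by role from ligands to cytoplasmic genes. The horizontal axis is log2(FPKM + 1), each point is 1 library, circles are Jurkat and squares Molt-4, pale points are untreated and dark points treated, and black ticks are the means of 3 libraries. The dark points of AXIN2 lie to the right of the pale ones in both lines, and those of AXIN1, DVL2 and DVL3 to the left.

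Promoter sequence was available from RefSeq (GRCh38.p14) for 29 of the 43 members, as the 250 bases before and 50 after the annotated start. AXIN2, DKK2, DKK3, DKK4, FZD10, FZD2, FZD3, FZD6, FZD7, LRP6, SFRP1, WNT10B, WNT11 and WNT7B had no entry. The windows were rich in G and C, with a median of 74.0% against 58.3% over all 27305 RefSeq windows of this length. The GC box GGGCGG, the core that SP-family factors bind, was found on either strand in 24 of 29 windows (82.8%, against 44.6% of all windows). Only 11 of the 29 windows belong to tested members, and 8 of these 11 held a GC box. The letters TCAAAG, the core recognized by TCF and LEF factors, were found in 1 window, that of DKK1 (3.45%, against 13.1%). The E-box CACGTG and the TATA box TATAAA were each in 1 window (3.45%, against 7.43% and 12%). These matches describe the letters in the windows and show no binding.

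A set of 4 of these windows is shown, for 2 genes that rose and 2 that fell in both lines, to show how far windows differ on each side: WNT2B at chr1:112466291-112466590 (plus strand, 57.7% G and C), FZD4 at chr11:86955346-86955645 (minus strand, 79.7%), DVL3 at chr3:184155127-184155426 (plus strand, 77.7%) and AXIN1 at chr16:352674-352973 (minus strand, 78.0%). Each is written 5′ to 3′ on the strand of its gene, with the GC box or its reverse complement in capitals.
WNT2B: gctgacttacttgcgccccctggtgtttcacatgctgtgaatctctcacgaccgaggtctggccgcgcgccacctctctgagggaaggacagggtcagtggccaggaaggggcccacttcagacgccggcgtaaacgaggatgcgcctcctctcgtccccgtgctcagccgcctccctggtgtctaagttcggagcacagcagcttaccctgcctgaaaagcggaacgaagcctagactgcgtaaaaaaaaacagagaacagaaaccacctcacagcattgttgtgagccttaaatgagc
FZD4: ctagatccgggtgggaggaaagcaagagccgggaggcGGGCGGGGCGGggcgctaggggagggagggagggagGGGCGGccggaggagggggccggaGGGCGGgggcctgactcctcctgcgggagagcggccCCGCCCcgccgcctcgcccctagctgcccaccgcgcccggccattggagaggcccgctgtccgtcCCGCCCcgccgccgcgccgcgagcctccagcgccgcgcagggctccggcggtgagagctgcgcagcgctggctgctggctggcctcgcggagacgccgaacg
DVL3: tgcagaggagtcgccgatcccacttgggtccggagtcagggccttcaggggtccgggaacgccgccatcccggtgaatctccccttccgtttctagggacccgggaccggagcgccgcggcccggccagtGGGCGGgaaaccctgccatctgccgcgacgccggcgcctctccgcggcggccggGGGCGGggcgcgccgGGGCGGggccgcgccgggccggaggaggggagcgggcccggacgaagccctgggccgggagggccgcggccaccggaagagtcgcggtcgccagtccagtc
AXIN1: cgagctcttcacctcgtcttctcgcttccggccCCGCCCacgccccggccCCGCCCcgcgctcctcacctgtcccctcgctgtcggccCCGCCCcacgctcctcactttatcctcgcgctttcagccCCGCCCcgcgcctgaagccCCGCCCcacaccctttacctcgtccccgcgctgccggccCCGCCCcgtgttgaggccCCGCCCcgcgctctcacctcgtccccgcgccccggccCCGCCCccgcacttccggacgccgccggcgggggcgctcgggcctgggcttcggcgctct
The window of WNT2B holds 0 GC boxes, that of FZD4 holds 6, that of DVL3 holds 3 and that of AXIN1 holds 8. FZD4 with 6 boxes rose and AXIN1 with 8 fell. Whether the number of boxes goes with the direction of change was not tested. Windows were missing for AXIN2, FZD2, FZD6, LRP6 and WNT10B, which were called higher in both lines.

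The ligands were low before treatment. Besides WNT11, 3 were tested. Of these, WNT8B reached an FPKM of 1 in 1 untreated library and passed the filter through treated Jurkat, where it was called higher. The other 2, WNT10B and WNT2B, were called higher in both lines, beside 30.9% of all genes tested in Jurkat and 35.4% in Molt-4. WNT10B, a ligand of the canonical branch, was at 0.22, 0.26 and 0.20 FPKM in untreated Jurkat and at 4.75, 4.06 and 4.85 FPKM in treated Jurkat (log2 change 2.18 ± 0.16, adjusted p = 2.93e-07). In Molt-4 it was at 2.62, 1.58 and 1.20 FPKM untreated and at 2.63, 3.37 and 2.70 FPKM treated (0.50 ± 0.16, adjusted p = 0.0152). The Jurkat groups lay far apart, while in Molt-4 the highest untreated library came close to the lowest treated one. The Molt-4 call was lost without untreated replicate 2 or 3 or treated replicate 2 (adjusted p = 0.0502, 0.0694 and 0.0623), within the Molt-4 libraries alone (0.054) and under quantile normalization, where the change was -0.12.

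WNT2B is another canonical ligand. It was at 1.85, 1.60 and 2.30 FPKM in untreated Jurkat and at 5.09, 4.64 and 4.99 FPKM in treated Jurkat (log2 change 1.02 ± 0.13, adjusted p = 3.52e-05). Untreated Molt-4 had 0.23, 0.12 and 0.16 FPKM and treated Molt-4 2.21, 1.38 and 1.34 FPKM (1.16 ± 0.13, adjusted p = 1.07e-05). Every treated library of a line was above every untreated one. Exons of WNT2B overlap those of ST7L on the opposite strand by up to 2594 bases in the GENCODE annotation, and whether the counting used strand is not given in the sources used here. ST7L itself was at 12.2 ± 1.73 FPKM untreated and 10.3 ± 0.6 treated in Jurkat (SD, n = 3) and at 9.04 ± 1.08 and 8.38 ± 0.393 FPKM in Molt-4, and was not called in either (limma adjusted p = 0.105 and 0.472).

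WNT8B was at 0.96, 0.79 and 1.37 FPKM in untreated Jurkat and at 2.03, 2.04 and 2.03 FPKM in treated Jurkat (log2 change 0.58 ± 0.11, adjusted p = 0.000674). This call was lost under quantile normalization (adjusted p = 0.583). In Molt-4 the untreated libraries had 0.26, 0.43 and 0.27 FPKM and the treated ones 0.51, 0.48 and 0.39 FPKM, which overlap (0.15 ± 0.11, adjusted p = 0.268), and quantile normalization turned this change to -0.42. WNT11, a ligand best known from the beta-catenin-independent branch, was listed at 0 in the 3 untreated Jurkat libraries and at 0.09, 1.13 and 0.61 FPKM in the treated ones (0.63 ± 0.19, adjusted p = 0.0126; 0.071 within the Jurkat libraries alone). In Molt-4 it was at 0.21, 0 and 0.11 FPKM untreated and at 2.30, 2.03 and 2.53 FPKM treated (1.57 ± 0.19, adjusted p = 1.74e-05). The treated Jurkat libraries thus spread from near 0 to above 1 FPKM, and the treated Molt-4 libraries lay close together.

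Summed over all 18 ligands, including those too low to test, the level was 3.33 to 4.93 FPKM in untreated Jurkat libraries and 15.8 to 17.8 in treated ones. In Molt-4 the sum was 2.30 to 3.55 FPKM untreated and 9.45 to 11.1 treated. WNT2B led the ligands of untreated Jurkat with 1.92 FPKM, followed by WNT8B with 1.04 and WNT5A with 0.50. The lowest WNT2B library (1.60) was above the highest WNT8B one (1.37), and that of WNT8B (0.79) above the highest of WNT5A (0.70). In treated Jurkat the ranges of WNT2B (4.64 to 5.09) and WNT10B (4.06 to 4.85) overlapped. WNT10B led in Molt-4 with 1.80 FPKM untreated and 2.90 treated, and in treated Molt-4 WNT11 (2.29) and WNT2B (1.64) followed, with ranges that overlapped each other but not that of WNT10B.

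Of the 21 members too low to test but above 0 somewhere, 14 were ligands. Every treated library was above every untreated one for 10 of the 21 in Jurkat, where the same held for 20.8% of all 6264 genes too low to test and 2.09% were separated downward. In Molt-4 this held for 10 of the 21, against 26.0% of the low genes upward and 1.9% downward. In both lines 0 of the 21 were separated downward. WNT10A, which lies next to WNT6 in the RefSeq gene order, was at 0, 0 and 0.05 FPKM in untreated Jurkat and at 1.47, 0.69 and 2.06 FPKM in treated Jurkat. WNT6 was listed at 0 in the 6 untreated libraries, and at 0.58, 0.69 and 0.58 FPKM in treated Jurkat and 0.15, 0.39 and 0.38 FPKM in treated Molt-4. WNT1, the neighbour of WNT10B, was at 0, 0.06 and 0.11 FPKM in untreated Jurkat and 0.59, 0.33 and 0.61 FPKM in treated Jurkat. Untreated Molt-4 listed WNT1 at 0 in each library, and treated Molt-4 had 0.55, 0.36 and 0.53 FPKM.

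WNT5A, the main ligand of the beta-catenin-independent branch, went the same way at a higher starting level. It was at 0.27, 0.53 and 0.70 FPKM in untreated Jurkat and at 0.97, 1.13 and 0.93 in treated Jurkat, and in Molt-4 at 0.14, 0.14 and 0.07 FPKM untreated and 0.35, 0.65 and 0.61 treated. WNT9A, FZD10 and SFRP4 were also separated upward in both lines. WNT3A, WNT5B and FZD9 were separated upward in Jurkat, and WNT4, WNT7A and SFRP5 in Molt-4. WNT16, WNT2, WNT7B, WNT8A, WNT9B, DKK1, DKK2 and SFRP1 were separated in neither line and stayed at or under 0.23 FPKM in every library. With no filter on low values, limma called 9 of the 21 higher in Jurkat and 10 in Molt-4, and 0 lower in either. In that fit, of all 6264 low genes, 15.4% were called higher and 1.47% lower in Jurkat, and 22.3% and 1.29% in Molt-4.

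**Figure D2:**
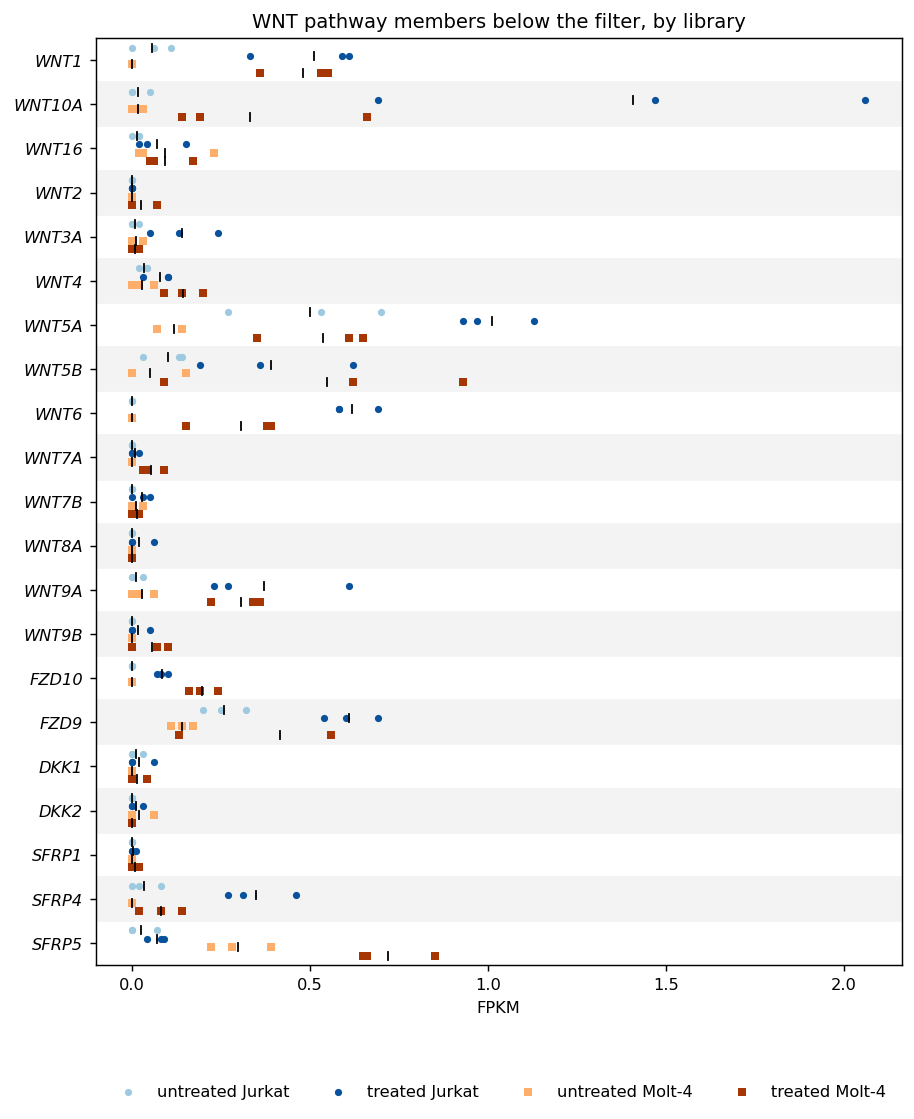
The 21 members that did not pass the filter but were above 0 in some library, ordered by role. The horizontal axis is FPKM, each point is 1 library, circles are Jurkat and squares Molt-4, pale points are untreated and dark points treated, and black ticks are the means of 3 libraries. WNT10A in treated Jurkat reaches 2.06 FPKM, the highest value shown.

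Among the Frizzled genes, which encode the receptors that bind WNT directly, 7 were tested. Without FZD7, 4 of 6 were called higher in Jurkat and 5 of 6 in Molt-4, and none lower, beside 30.9% and 35.4% of all genes tested called higher. FZD6 had the highest mean in each group, though FZD3 exceeded it in 1 untreated Jurkat library. It was at 10.08, 10.53 and 11 FPKM in untreated Jurkat and 14.80, 15.14 and 14.76 in treated Jurkat (log2 change 0.46 ± 0.07, adjusted p = 0.000135), and in Molt-4 at 10.23, 9.45 and 10.57 FPKM untreated and 12.54, 12.45 and 13.47 treated (0.32 ± 0.07, adjusted p = 0.00192). FZD2 was at 4.39, 5.10 and 6.60 FPKM in untreated Jurkat and 8.30, 8.72 and 8.18 in treated Jurkat (0.58 ± 0.12, adjusted p = 0.0011). In Molt-4 FZD2 was at 5.71, 6.50 and 5.93 FPKM untreated and 9.96, 9.77 and 11.12 treated (0.68 ± 0.12, adjusted p = 0.000306). The groups did not overlap for either gene in either line.

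FZD7, a receptor often studied in stem and tumour cells, was low before treatment. It was at 0.29, 0.32 and 0.75 FPKM in untreated Jurkat and at 3.22, 3.15 and 3.32 in treated Jurkat (log2 change 1.56 ± 0.12, adjusted p = 5.56e-07). In Molt-4 FZD7 was at 0.29, 0.39 and 0.26 FPKM untreated and at 1.65, 2.06 and 2.09 treated (1.16 ± 0.12, adjusted p = 5.6e-06). This was the largest change of a tested Frizzled gene in both lines on the log2(FPKM + 1) scale. FZD7 passed the filter through treated libraries alone, so this rank favours it.

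FZD1 was at 3.93, 4.34 and 3.88 FPKM in untreated Jurkat and at 6.14, 5.59 and 6.06 in treated Jurkat (log2 change 0.46 ± 0.085, adjusted p = 0.000629; 0.146 under quantile normalization). In Molt-4 it was at 2.13, 2.55 and 2.31 FPKM untreated and at 5.21, 5.16 and 4.96 treated (0.88 ± 0.085, adjusted p = 2.77e-06). FZD4, which besides WNT ligands binds the unrelated ligand norrin, set the lines apart. It was at 0.02, 0.02 and 0.01 FPKM in untreated Jurkat and 0.35, 0.33 and 0.28 in treated Jurkat, where its call (0.38 ± 0.088, adjusted p = 0.00297) was lost under quantile normalization (adjusted p = 0.664). In Molt-4 FZD4 was at 2.78, 3.28 and 2.81 FPKM untreated and 6.30, 6.51 and 5.71 treated (0.86 ± 0.088, adjusted p = 4.36e-06). Its exons overlap those of PRSS23 on the opposite strand by up to 1255 bases, and PRSS23 was at no more than 0.38 FPKM in any library.

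FZD3 rested on 1 library. It was at 17.72, 5.00 and 6.16 FPKM in untreated Jurkat and at 6.58, 7.57 and 5.71 in treated Jurkat, with replicate 1 far above the other untreated ones. The log2 change in Jurkat was -0.29 ± 0.31 (adjusted p = 0.453), and 0.21 without untreated replicate 1. In Molt-4 FZD3 was at 1.27, 1.38 and 1.03 FPKM untreated and 3.01, 3.20 and 3.34 treated, with no overlap (0.91 ± 0.31, adjusted p = 0.0249). Within the Molt-4 libraries alone the adjusted p was 0.00019, and without untreated Jurkat replicate 1, which enters the shared estimate of the spread, it was 5.09e-05. The call was lost without untreated Molt-4 replicate 1 or 3 or treated Molt-4 replicate 2 or 3 (adjusted p = 0.052, 0.0701, 0.0569 and 0.0632), and under quantile normalization (0.378). FZD5 was called in neither line: it was at 1.57, 1.84 and 1.59 FPKM untreated and 1.83, 1.79 and 2.14 treated in Jurkat (0.13, adjusted p = 0.248) and at 2.84, 3.01 and 2.72 untreated and 3.69, 3.19 and 3.55 treated in Molt-4 (0.21, adjusted p = 0.0609). Quantile normalization turned the FZD5 changes to -0.34 and -0.37, both called.

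The co-receptor genes had higher mean levels than any Frizzled gene within each group. LRP6 was at 14.99, 18.57 and 16.19 FPKM in untreated Jurkat and at 29.34, 33.43 and 38.26 in treated Jurkat (log2 change 0.98 ± 0.11, adjusted p = 1.38e-05), a ratio of means of 2.03. In Molt-4 LRP6 was at 18.31, 22.89 and 19.83 FPKM untreated and at 31.34, 27.82 and 27.63 treated (0.49 ± 0.11, adjusted p = 0.00243). LRP6 rose in both lines, and LRP5, its close relative, in Jurkat. LRP5 was at 16.82, 18.33 and 17.33 FPKM in untreated Jurkat and at 22.91, 21.75 and 24.26 in treated Jurkat (0.37 ± 0.07, adjusted p = 0.000643). In Molt-4 its untreated libraries had 28.64, 26.26 and 27.42 FPKM and its treated ones 24.73, 25.26 and 28.03, which overlap (-0.08 ± 0.07, adjusted p = 0.371).

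Of the secreted antagonists, DKK3 was the one tested. It was listed at 0 in the untreated Jurkat libraries and at 1.98, 2.85 and 1.42 FPKM in the treated ones (log2 change 1.60 ± 0.17, adjusted p = 6.73e-06). In Molt-4 it was at 0, 0 and 0.08 FPKM untreated and at 1.35, 1.45 and 2.41 treated (1.39 ± 0.17, adjusted p = 1.86e-05). DKK3 is the family member that does not act on LRP5 and LRP6 in the classical way. DKK1 and DKK2, which bind these co-receptors, were at no more than 0.06 FPKM in any library. DKK4 and SFRP2 were listed at 0 in all 12. SFRP4, a decoy that binds WNT outside the cell, was at 0, 0.02 and 0.08 FPKM in untreated Jurkat and 0.31, 0.27 and 0.46 in treated Jurkat. SFRP5 was at 0.22, 0.28 and 0.39 FPKM in untreated Molt-4 and 0.65, 0.85 and 0.66 in treated Molt-4.

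Inside the cell, genes of 1 complex moved in opposite directions. AXIN2, a scaffold of the destruction complex and a widely used transcriptional target of beta-catenin, was at 2.67, 3.35 and 3.15 FPKM in untreated Jurkat and at 15.49, 16.62 and 16.25 in treated Jurkat (log2 change 2.08 ± 0.092, adjusted p = 5.11e-09), a ratio of means of 5.27. In Molt-4 AXIN2 was at 3.85, 4.76 and 4.23 FPKM untreated and at 9.66, 10.04 and 10.30 treated (1.06 ± 0.092, adjusted p = 1.08e-06), a ratio of 2.34. AXIN1, the constitutive scaffold, fell. It was at 23.38, 23.58 and 23.33 FPKM in untreated Jurkat and at 18.68, 18.06 and 19.65 in treated Jurkat (-0.30 ± 0.068, adjusted p = 0.00222), and in Molt-4 at 23.49, 20.61 and 22.71 untreated and 17.85, 18.11 and 16.40 treated (-0.33 ± 0.068, adjusted p = 0.00109). Treated AXIN2 libraries in Jurkat still lay below all treated AXIN1 libraries of that line. An uncharacterized transcript on the same strand, AC004805.1, overlaps the exons of AXIN2 by up to 931 bases, and reads there could belong to either; APC shares up to 117 bases with AC008575.1 in the same way.

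CTNNB1 rose by a smaller factor with little spread. It was at 36.18, 35.94 and 36.59 FPKM in untreated Jurkat and at 47.36, 47.29 and 46.65 in treated Jurkat (log2 change 0.37 ± 0.044, adjusted p = 2.02e-05), and in Molt-4 at 50.42, 51.48 and 49.80 untreated and 73.59, 70.32 and 70.22 treated (0.49 ± 0.044, adjusted p = 1.57e-06). The ratios of means were 1.30 and 1.41. FPKM measures its transcript, while the pathway controls beta-catenin at the level of the protein, which was not measured. APC, which holds beta-catenin in the destruction complex, was at 11.29, 14.39 and 11.34 FPKM in untreated Jurkat and at 9.50, 9.53 and 8.98 in treated Jurkat (-0.36 ± 0.11, adjusted p = 0.0127). Without untreated Jurkat replicate 2, its highest library, this was -0.25 and not called (adjusted p = 0.0574). In Molt-4 APC was at 13.31, 12.54 and 13.47 FPKM untreated and 15.31, 12.58 and 16.22 treated (0.15, adjusted p = 0.256).

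Both Dishevelled genes fell in both lines. DVL3 was at 38.55, 39.95 and 42.33 FPKM in untreated Jurkat and at 31.61, 28.94 and 33.69 in treated Jurkat (log2 change -0.35 ± 0.065, adjusted p = 0.000587). In Molt-4 DVL3 was at 42.20, 42.51 and 43.58 FPKM untreated and at 32.33, 32.19 and 30.05 treated (-0.43 ± 0.065, adjusted p = 0.000114). DVL2 was at 60.87, 60.17 and 61.97 FPKM in untreated Jurkat and at 54.50, 51.18 and 53.57 in treated Jurkat (-0.20 ± 0.048, adjusted p = 0.00406), a call lost under quantile normalization (0.155) and when library totals were equalized with 7SL RNA left out (0.0951). In Molt-4 it was at 42.80, 41.77 and 40.86 FPKM untreated and at 31.47, 32.32 and 33.26 treated (-0.36 ± 0.048, adjusted p = 4.45e-05). The rises and falls of the 6 cytoplasmic genes left their summed level nearly where it was: 173 to 179 FPKM in untreated and 172 to 179 in treated Jurkat, and 174 to 176 and 176 to 180 in Molt-4.

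**Figure D3:**
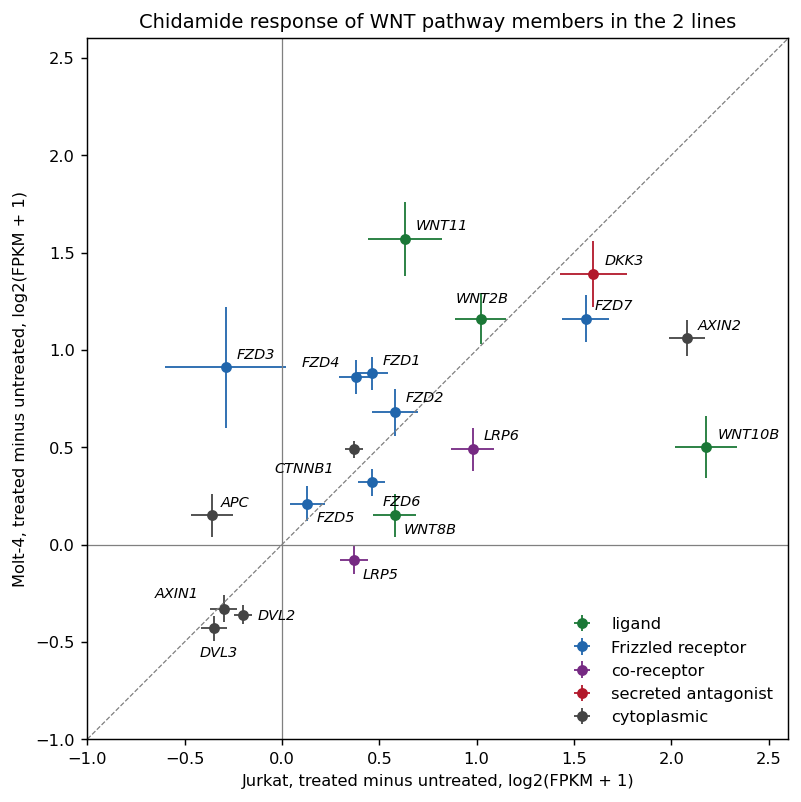
Change with chidamide in Jurkat (horizontal) and Molt-4 (vertical) for the 20 members tested, as differences of log2(FPKM + 1), with bars of 1 SE and the dashed line of equal change. Colours mark the role. AXIN2 (2.08 and 1.06) and WNT10B (2.18 and 0.50) lie below the dashed line, WNT11 (0.63 and 1.57) lies above it, and AXIN1, DVL2 and DVL3 are below 0 in both lines.

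The response differed between the lines for 9 of the 20 tested members: the change was larger (or less negative) in Molt-4 for 4 and in Jurkat for 5. Without DKK3, WNT11 and FZD7, which passed the filter through treated libraries alone, these counts were 3 and 5 of 17. WNT8B, which also needed treated libraries to pass, is among these 5. Of all genes tested, 19.8% were called higher and 12.1% lower in this difference, which uses the same libraries as the comparisons above. Over all 20 members, the split was 2 and 7 under quantile normalization, and 3 and 6 when library totals were equalized with 7SL RNA left out. The shares of all genes called under these scalings are not given. WNT10B had the largest difference (Molt-4 minus Jurkat -1.67 ± 0.22, adjusted p = 0.000144), followed by AXIN2 (-1.02 ± 0.13, adjusted p = 0.000107), and LRP5 also changed more in Jurkat (-0.45 ± 0.099, adjusted p = 0.00442). These 3 calls held under every alternative run that gave a value. LRP6 (-0.49 ± 0.16, adjusted p = 0.0353) lost its call under 9 alternatives and WNT8B (-0.44 ± 0.15, adjusted p = 0.049997) under 15, among them most of those that left out 1 library.

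In the other direction, WNT11 (0.94 ± 0.27, adjusted p = 0.0185), FZD4 (0.48 ± 0.12, adjusted p = 0.011) and FZD1 (0.42 ± 0.12, adjusted p = 0.019) rose more in Molt-4. The difference of APC was also positive (0.51 ± 0.15, adjusted p = 0.0235). It goes with a fall of APC in Jurkat (-0.36), while its Molt-4 change was not called (0.15, limma adjusted p = 0.256). For FZD4 the direction depended on the scale: with a pseudocount of 0.1 in place of 1, which gives more weight to low values, the difference was -0.81 (adjusted p = 0.0219). The WNT11 difference was not called with that pseudocount (adjusted p = 0.301) or under quantile normalization (0.0843), and that of FZD1 was lost under quantile normalization (0.149). That of APC was lost without treated Jurkat replicate 3, untreated Molt-4 replicate 2 or treated Molt-4 replicate 1 or 3 (adjusted p = 0.052, 0.0535, 0.0546 and 0.0613). FZD3 was not called (1.21 ± 0.44, adjusted p = 0.0575), and without untreated Jurkat replicate 1 its difference was 0.70 (adjusted p = 0.0119). WNT2B was not called either (0.14, adjusted p = 0.619), though it was with the pseudocount of 0.1 (1.35, adjusted p = 0.00856).

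The untreated lines, whose libraries are also the controls above, differed for 12 of the 20: 7 were higher and 5 lower in Molt-4, against 27.9% and 37.5% of all genes tested. FZD4 was higher in Molt-4 by 1.96 ± 0.088 (adjusted p = 1.34e-09) and WNT10B by 1.16 ± 0.16 (adjusted p = 3.74e-05). LRP5 (0.62), FZD5 (0.53), CTNNB1 (0.47), AXIN2 (0.38) and LRP6 (0.28) were higher as well, LRP6 with overlapping libraries and with a call lost under 10 alternatives. FZD3 was lower in Molt-4 by -2.07 ± 0.31 (adjusted p = 9.61e-05) and WNT2B by -1.31 ± 0.13 (adjusted p = 2.49e-06), with WNT8B (-0.62), FZD1 (-0.60) and DVL2 (-0.53) also lower. The leading ligand thus differed: WNT2B in untreated Jurkat and WNT10B in untreated Molt-4.

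The rest of the pathway was followed in 8 lists of genes. In all, 62 listed genes were tested, of which 31 were called higher and 10 lower in Jurkat and 31 higher and 7 lower in Molt-4. Under quantile normalization the Molt-4 counts were 24 and 11, with no share of all genes given for that setting. APC2, NOTUM, RNF43, SP5, TCF7L1, TNFRSF19, TSPAN12 and WLS passed the filter through treated libraries alone and are left out of the counts that follow. Of the other 54, 23 were higher and 10 lower in Jurkat and 23 and 7 in Molt-4, against 30.9% and 25.4% of all genes tested in Jurkat and 35.4% and 24.6% in Molt-4. SOSTDC1, at 0.93, 1.53 and 1.22 FPKM in untreated Jurkat and no more than 0.17 in untreated Molt-4, also needed treated libraries to pass. It is still counted. Some genes stand in more than 1 list. Of the genes that make and release WNT, this left PORCN, called higher in both lines. It encodes the acyltransferase that attaches the lipid to WNT, and rose from 7.42 ± 1.31 to 11.1 ± 0.828 FPKM in Jurkat and from 4.65 ± 0.344 to 13.3 ± 1.23 in Molt-4. NOTUM, an enzyme that removes that lipid again, rose from 0.37 ± 0.282 to 2.65 ± 0.775 FPKM and from 0.713 ± 0.329 to 3.28 ± 0.0794. WLS, the carrier of WNT to the cell surface, was listed at 0 in the untreated libraries and had means of 0.727 and 1.07 FPKM in the treated ones.

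Of the receptor partners and regulators, 7 were counted. In Jurkat 4 were called higher and 1 lower, beside 30.9% and 25.4% of all genes tested. In Molt-4 3 were called higher and 2 lower, near the shares of 35.4% and 24.6%. RNF43, a ubiquitin ligase that removes Frizzled from the surface and is itself a target of the pathway, rose from 0.397 ± 0.0666 to 8.15 ± 1.01 FPKM in Jurkat (log2 change 2.71 ± 0.11) and from 0.613 ± 0.107 to 8.25 ± 0.688 in Molt-4 (2.52 ± 0.11). KREMEN2, a receptor for DKK proteins, rose by 1.02 and 0.80 on this scale. PTK7, a WNT co-receptor, rose in Jurkat from 43.7 ± 3.15 to 74.8 ± 2.73 FPKM and fell in Molt-4 from 44.1 ± 0.736 to 32.0 ± 1.04. KREMEN1 rose in Molt-4 from 1.55 ± 0.426 to 6.79 ± 0.693 FPKM, and was called lower in Jurkat, from 26.5 ± 1.02 to 20.9 ± 1.15 (adjusted p = 0.0308), a call lost under 6 alternatives. TSPAN12, a partner of FZD4, rose from 0.553 ± 0.124 to 3.08 ± 0.468 FPKM in Molt-4. Of 6 further secreted antagonists, SOSTDC1 alone passed the filter, at 1.23 ± 0.3 FPKM untreated and 10.8 ± 1.11 treated in Jurkat (2.41 ± 0.12, adjusted p = 1.16e-08) and 0.0967 ± 0.0643 and 0.11 ± 0.0872 in Molt-4.

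Of 10 genes counted in the destruction complex beyond the members, 2 were called higher and 2 lower in each line, below or near the shares of all genes tested (30.9% higher and 25.4% lower in Jurkat, 35.4% and 24.6% in Molt-4). APC2, a relative of APC, rose from 0.577 ± 0.158 to 2.65 ± 0.166 FPKM in Jurkat and from 0.563 ± 0.17 to 1.24 ± 0.24 in Molt-4, where quantile normalization turned the change to -0.22. AMER1, which recruits APC to the membrane, fell from 4.27 ± 0.872 to 2.35 ± 0.164 FPKM and from 4.60 ± 0.327 to 2.17 ± 0.15. GSK3A, one of the kinases that phosphorylate beta-catenin, fell in Molt-4 from 60.2 ± 1.69 to 47.5 ± 1.66 FPKM. GSK3B, of the same list and picked out after its values were seen, was called higher in Jurkat, from 20.1 ± 0.342 to 27.0 ± 1.43 FPKM. In Molt-4 GSK3B was not called (22.6 ± 0.97 untreated and 21.3 ± 1.67 treated). TNKS2, a tankyrase that promotes AXIN turnover, rose in Jurkat from 19.6 ± 1.83 to 26.5 ± 0.222 FPKM.

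In the nucleus, 5 of 10 genes counted in the TCF/LEF complex were called higher and 1 lower in Jurkat, and 4 and 1 in Molt-4. Of all genes tested, 30.9% were called higher and 25.4% lower in Jurkat, and 35.4% and 24.6% in Molt-4. The higher count in Molt-4 is near that share. LEF1 rose from 339 ± 57.1 to 999 ± 7.74 FPKM in Jurkat (log2 change 1.57 ± 0.087) and from 232 ± 1.92 to 509 ± 19.7 in Molt-4 (1.13 ± 0.087). The coactivator gene BCL9L rose from 8.9 ± 1.65 to 24.5 ± 3.79 FPKM and from 7.03 ± 1.72 to 17.6 ± 1.22. TCF7L1, which often acts as a repressor, rose from 0.167 ± 0.0404 to 2.07 ± 0.225 FPKM in Jurkat and from 0.173 ± 0.0808 to 1.26 ± 0.295 in Molt-4, where the call was lost under quantile normalization (adjusted p = 0.0961). The gene that fell in both lines was TCF7, picked out after its values were seen: it went from 227 ± 5.86 to 153 ± 4.16 FPKM in Jurkat (-0.57 ± 0.042) and from 479 ± 15.6 to 398 ± 7.95 in Molt-4 (-0.26 ± 0.042), the latter not called under quantile normalization (adjusted p = 0.142).

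Several TLE genes encode corepressors that sit on TCF and LEF factors without beta-catenin. Of the 6 tested, 5 were called higher and none lower in each line. Of all genes tested, 30.9% were called higher in Jurkat and 35.4% in Molt-4. In each line the 5 include TLE6 and AES, also named TLE5, for which the corepressor role is not assumed here. AES changed by 0.12 in Jurkat and 0.30 in Molt-4. The Jurkat call of TLE6 (limma adjusted p = 0.0263) was lost under 6 alternatives. TLE4 rose from 7.89 ± 1.18 to 31.6 ± 0.933 FPKM in Jurkat and from 5.75 ± 0.311 to 15.9 ± 2.43 in Molt-4. TLE1 rose from 17.2 ± 0.481 to 32.4 ± 0.392 FPKM and from 2.66 ± 0.433 to 6.11 ± 0.369. TLE2 rose in Molt-4 from 1.59 ± 0.614 to 45.9 ± 1.95 FPKM (log2 change 4.20 ± 0.13), while in Jurkat it was at 34.1 ± 1.32 untreated and 42.4 ± 2.5 treated (adjusted p = 0.0606).

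Genes known as canonical targets or feedback regulators went both ways. Of 10 counted, 3 were called higher and 3 lower in Jurkat, and 4 and 3 in Molt-4. These counts are near the shares of all genes tested, 30.9% and 25.4% in Jurkat and 35.4% and 24.6% in Molt-4. Those called lower were NKD2, TCF7 and MYC in both lines. CCND1, the cyclin D1 gene, rose in Jurkat from 0.02 ± 0.0173 to 2.86 ± 0.954 FPKM and was at 24.4 ± 2.4 untreated and 21.6 ± 3.49 treated in Molt-4 (adjusted p = 0.374). CD44, an adhesion receptor gene, rose in Molt-4 from 12.4 ± 1.06 to 45.2 ± 2.64 FPKM and was below 1 FPKM in Jurkat. TNFRSF19 rose from 0.0467 ± 0.0208 to 2.17 ± 0.289 FPKM in Jurkat and from 0.0633 ± 0.0603 to 0.653 ± 0.224 in Molt-4, where the call was lost under quantile normalization (0.03, adjusted p = 0.851). NKD2, an inhibitor of Dishevelled picked out after its values were seen, fell from 28.4 ± 0.356 to 11.8 ± 1.0 FPKM and from 27.8 ± 0.287 to 15.1 ± 0.825.

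The planar cell polarity branch, which signals from Frizzled and Dishevelled to the cytoskeleton, had 4 of 13 tested genes higher and 4 lower in Jurkat, and 6 higher and none lower in Molt-4. The Jurkat counts are near the shares of all genes tested, 30.9% and 25.4%; those in Molt-4 were 35.4% and 24.6%. DAAM2, a formin that Dishevelled binds, fell in Jurkat from 11.4 ± 0.829 to 3.3 ± 0.329 FPKM. PRICKLE3 fell in Jurkat from 8.62 ± 1.09 to 5.66 ± 0.855 FPKM and rose in Molt-4 from 12.1 ± 1.17 to 25.2 ± 1.96. PRICKLE4 rose from 5.52 ± 0.441 to 8.62 ± 0.268 FPKM and from 4.62 ± 0.5 to 8.31 ± 0.705. VANGL2 rose in Molt-4 from 3.27 ± 0.0854 to 5.82 ± 0.11 FPKM.

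**Figure D4:**
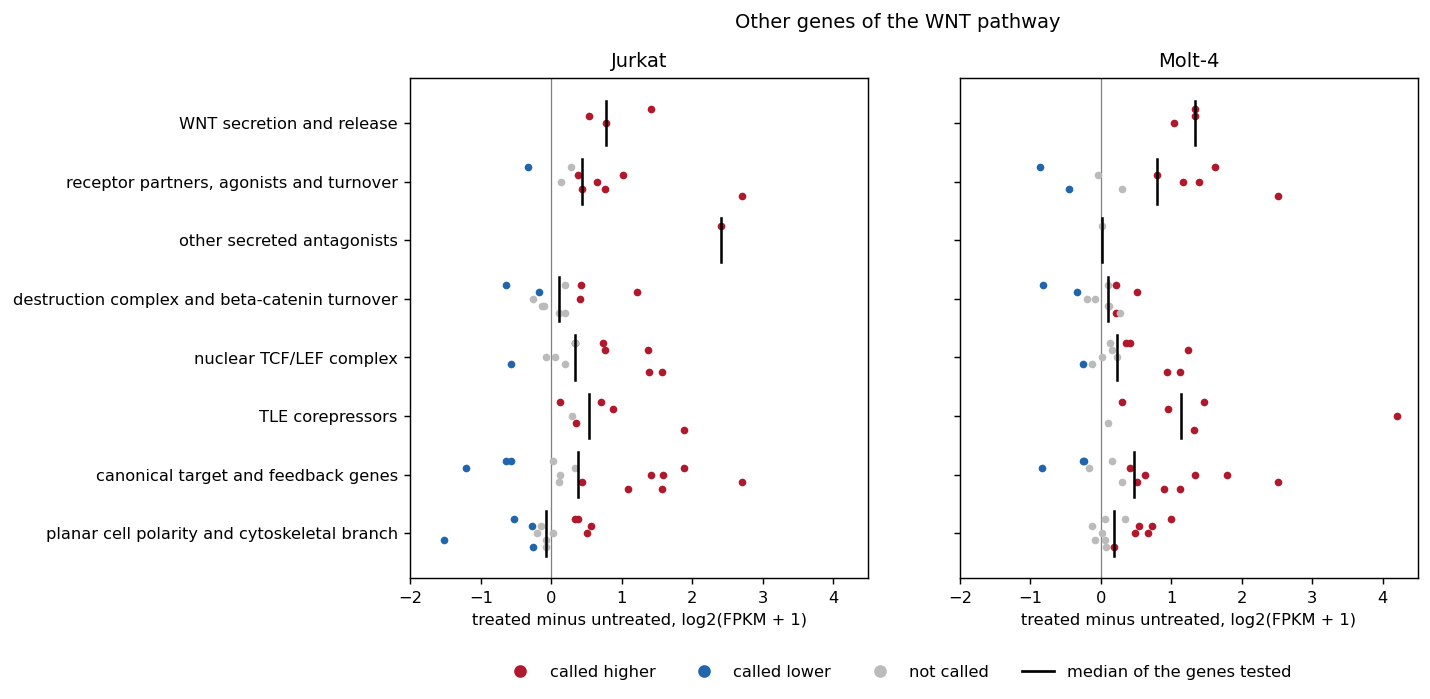
Other genes of the WNT pathway in Jurkat (left) and Molt-4 (right). The horizontal axis is the treated minus untreated difference of log2(FPKM + 1), and each point is 1 gene of the list named at the left. Red and blue points were called higher and lower, and grey points were not called. Black bars are the medians of all genes tested. Points and medians include the genes that passed the filter through treated libraries alone, RNF43 among them. TLE2 in Molt-4 (4.20) and RNF43 in both lines (2.71 and 2.52) lie far to the right.

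The libraries held 698435 to 869059 FPKM in total and 11643 to 13228 genes at an FPKM of at least 1; read counts are not in the table, so the depth is unknown. Untreated Molt-4 replicate 3 had 10.1% of its FPKM in 7SL RNA, against 2.25% to 5.35% in the others. Of 8 T-cell markers all were present. Their summed level was 2020 to 2060 FPKM in untreated and 1190 to 1250 in treated Jurkat, and 831 to 912 and 689 to 725 in Molt-4. Most of it was CD3D, CD3E and LCK, which fell in both lines, as did CD3G. CD2 rose in both lines, CD7 and CD247 fell in Jurkat and rose in Molt-4, and the CD5 libraries overlapped. Of the 8, 1 was called higher in Jurkat and 3 in Molt-4, beside 30.9% and 35.4% of all genes tested. Markers of other cell types moved with treatment as well. The summed level of 5 fibroblast markers went from 0.52 to 1.99 FPKM up to 36.9 to 46.9 in Jurkat and from 0.23 to 1.25 up to 34.5 to 41.8 in Molt-4; nearly all of it was COL1A1, while DCN and LUM were listed at 0 in treated Jurkat. That of 7 myeloid markers went from 0.29 to 1.12 up to 1.54 to 4.84 FPKM in Jurkat and from 11.3 to 12.3 up to 89.8 to 90.3 in Molt-4, mostly LYZ, with CSF1R at no more than 0.48 FPKM and MPO at no more than 0.25. That of 6 epithelial markers went from 0.31 to 0.53 up to 1.0 to 2.42 FPKM in Jurkat, with EPCAM listed at 0, and from 108 to 114 up to 278 to 284 in Molt-4. That of 5 B-cell markers was 10.8 to 14.3 FPKM untreated and 5.0 to 7.1 treated in Jurkat, and 1.47 to 3.0 and 6.8 to 9.11 in Molt-4. The part of such cells in the results above was not tested.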

How the data were processed

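The authors deposited FPKM values per gene symbol. The submitters' processing notes name STAR, HTSeq and DESeq2 with the build hg19, and give no versions or order. How FPKM was computed and whether strand was used are not given in the sources used here. Per the labels' protocols, total RNA went into TruSeq RNA libraries. The labels do not spell out the letters J and M, which were taken for Jurkat and Molt-4, since the growth protocol names these lines.

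Genes that reached 1 FPKM in 3 or more of the 12 libraries (13840 of 25146) were fitted as log2(FPKM + 1) with limma 3.58.1 in R 4.3.3 (lmFit, eBayes with trend, 1 mean per group, 8 residual degrees of freedom), two-sided, with Benjamini-Hochberg adjustment over all genes of each comparison. The script was tested on simulated data. The alternatives were a pseudocount of 0.1, no filter, an FPKM of at least 5, 3 other scalings (median of ratios, quantile, equal totals without 7SL RNA), the groups compared alone, a replicate block, robust variances and each library left out.

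The members and lists were chosen with earlier results of these data known. For each comparison the rule named up to 10 called members with a mean FPKM of at least 1, plus CTNNB1, APC, AXIN1, AXIN2, the Dishevelled genes, LRP5 and LRP6, and up to 3 called genes per list. No counts were available, so no counting error is given.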

Additional observations from a re-analysis of the deposited data

Results flagged for a closer look

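The test of the difference between the lines set apart 9 members, given as the Molt-4 change minus the Jurkat change on the log2(FPKM + 1) scale: WNT10B -1.67, AXIN2 -1.02, LRP6 -0.49, LRP5 -0.45, WNT8B -0.44, FZD1 0.42, FZD4 0.48, APC 0.51 and WNT11 0.94. Of these, the treated and untreated libraries of Molt-4 overlapped for LRP5, WNT8B and APC. The differences of WNT10B and AXIN2 go with larger rises in Jurkat, and that of WNT11 with a larger rise in Molt-4. WNT11 passed the filter through treated libraries alone.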

How the results depend on the processing

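Of 80 member results, 55 kept their call, or stayed not called, under all 21 alternatives that gave a value: 40 were called throughout in 1 direction, and of 15 never called, 7 turned their sign under some alternative. The other 25 changed, and 5 of these reversed with a call on at least 1 side. For counts under the alternatives, here and above, the shares of all genes called under the same setting are not given. Such counts cannot be set beside the shares of the main fit. The counts of members include DKK3, FZD7 and WNT11 where these were tested. With no filter, 23 of 41 members were called higher in each line; with an FPKM of at least 5, 13 were tested and 8 were called higher in each line, 3 lower in the difference of the responses and 3 lower in untreated Molt-4, since fewer genes were tested. Quantile normalization gave 5 members lower in Molt-4, 2 higher in the difference, 11 listed pathway genes lower in Molt-4 (7 otherwise) and 18 lower in the difference (11 otherwise). It also reversed FZD5 (-0.34 in Jurkat, -0.37 in Molt-4), WNT10B (-0.12), WNT8B (-0.42) and APC2 (-0.22) in Molt-4 and VANGL2 in Jurkat (-0.21), and a pseudocount of 0.1 reversed the difference of FZD4 (-0.81); the cause was not tested. The median of all genes, 0.04 in Jurkat and 0.08 in Molt-4, was -0.05 and -0.10 under quantile normalization and 0.11 and 0.08 with equal totals without 7SL RNA. With 1 library left out, 14 to 14 members were higher and 3 to 4 lower in Jurkat, 11 to 13 and 3 to 3 in Molt-4, 3 to 5 and 3 to 5 in the difference, and 6 to 7 and 5 to 5 between untreated lines. Same-numbered replicates showed little shared deviation from their group means (correlations -0.0384 to 0.0408). This cannot tell whether the samples were paired, and the labels do not say what a shared number stands for. With the replicate block, 14 members were higher and 4 lower in Jurkat, and 13 and 3 in Molt-4. The block gave 4 and 4 in the difference and 7 and 5 between untreated lines. The depth is unknown, so values near 0 carry no known precision.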
